A study of Rattus norvegicus with 50 samples.

Results

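The nuclear genes of oxidative phosphorylation were followed in airway and alveolar tissue dissected from the lung of male Fischer rats that inhaled nickel subsulfide (Ni3S2). Members were all genes of the array's annotation whose symbol begins with Nduf, Sdha to Sdhd, Uqcr, Cox4 to Cox8 or Atp5, each read from the probe set with the highest mean over the 50 arrays. This gave 87 genes of the 13438 genes that could be named by a single symbol. Of these, 68 were classed here as subunits common to most tissues. They were 32 of complex I, 4 of complex II, 7 of complex III, 10 of complex IV (Cox7a2l counted among them) and 15 of complex V. Another 10 encode assembly factors of complexes I and II, 7 encode tissue-restricted forms of complex IV subunits, and the remaining 2 are the ATP synthase inhibitor Atp5if1 and the pseudogene Cox6c-ps1. A further 8 probe set entries with joint symbols, among them those of Cox6c, Cox7a2, Ndufa10 and Uqcrb, were left out. The subunits encoded by mitochondrial DNA have other symbols and are no members.

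Ni3S2 aerosol was breathed at 0.04, 0.08, 0.15 or 0.60 mg/m3, which the labels give as about 0.03, 0.06, 0.11 or 0.44 mg of nickel per cubic metre of air. Exposure took 6 hours daily, 5 days weekly, over 4 weeks (20 exposure days) or 1 week (5 exposure days). Control rats stood at 0 mg/m3 over the same 4 weeks or 1 week. All animals were male Fischer (F344) rats, about 7-8 weeks old when received. Each of the 10 groups gave 5 arrays, 1 animal per array, and these were the 5 of 8 animals with the best RNA. Values are log2 intensities, and the 5 arrays per group limit the precision of each mean.

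Oxidative phosphorylation passes electrons from NADH (through complex I) and from succinate (through complex II) to ubiquinone, then through complex III and cytochrome c to complex IV, where oxygen is reduced. The proton gradient built by complexes I, III and IV drives ATP synthase, called complex V. The genes are used in every cell with mitochondria and most strongly in working muscle, brown fat and other tissues of high energy demand, so that a lung sample holds their mRNA from epithelium, macrophages, vessels and muscle together. Several complex IV subunits exist as a widely used form and a muscle form, such as Cox6a1 and Cox6a2 or Cox8a and Cox8b.

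The tissue carried the genes of the labelled site. Over the 10 groups the mean log2 intensity of the listed markers lay between 11.32 and 11.56 for alveolar type 2 cells, 10.18 and 10.55 for alveolar type 1 cells, and 11.62 and 12.55 for club cells. The arrays of 0.04 mg/m3 at 1 week and of the 1-week controls stood apart from the rest on the first principal component, which held 63.5% of the variance of all genes and 72.1% of that of the 87 genes. On the component of the 87 genes the 0.04 mg/m3 arrays averaged -5.59 ± 0.569 and the 1-week controls -4.46 ± 0.574, while the 4-week controls averaged 2.33 ± 0.199 (SD, n = 5 each). The 0.08 mg/m3 arrays at 1 week were spread from -4.97 to 0.451. At 4 weeks, 1 array at 0.08 mg/m3 (replicate 1) and 1 at 0.04 mg/m3 (replicate 3) were high in skeletal muscle markers, with means of 10.22 and 7.13 over 9 genes, while the other 4-week arrays lay between 3.84 and 4.55.

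Promoters were read from RefSeq for 80 of the 87 genes as the 250 bases before the first listed start on the rat build GRCr8. The binding core of nuclear respiratory factor 1, GCGCATGC on either strand, was found in 9 of the 80 (11.2%), against 2.38% of all 27455 promoters. The half-site of the estrogen-related receptors, AAGGTCA, was found in 7.5% of the members' promoters and 3.77% of all. The hypoxia response element core, ACGTG, was found in 23.8% of the members' promoters and 16.9% of all. The E-box, CANNTG, which can overlap that core and which muscle regulatory factors bind, was found in 55.0% of the members' promoters and 65.2% of all. Such matches describe the letters only. The promoters below belong to the muscle forms with the largest changes at 4 weeks, Cox6a2 (chr1:192219717-192219966, minus strand) and Cox8b (chr1:205408274-205408523, minus strand), with E-boxes in capitals, and to Uqcrc1 (chr8:118467973-118468222, plus strand) and Ndufa11 (chr9:1637364-1637613, plus strand), among the common subunits that differed most between concentrations, with the nuclear respiratory factor 1 core in capitals.
Cox6a2: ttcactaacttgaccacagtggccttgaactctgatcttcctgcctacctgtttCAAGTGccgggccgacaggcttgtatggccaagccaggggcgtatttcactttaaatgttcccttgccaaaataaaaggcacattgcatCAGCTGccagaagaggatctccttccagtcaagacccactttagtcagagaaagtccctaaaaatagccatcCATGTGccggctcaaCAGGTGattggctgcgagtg
Cox8b: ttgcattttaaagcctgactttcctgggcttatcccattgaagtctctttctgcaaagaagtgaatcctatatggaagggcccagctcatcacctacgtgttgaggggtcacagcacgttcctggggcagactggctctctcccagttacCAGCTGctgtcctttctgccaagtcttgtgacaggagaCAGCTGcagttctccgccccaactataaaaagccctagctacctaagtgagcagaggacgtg
Uqcrc1: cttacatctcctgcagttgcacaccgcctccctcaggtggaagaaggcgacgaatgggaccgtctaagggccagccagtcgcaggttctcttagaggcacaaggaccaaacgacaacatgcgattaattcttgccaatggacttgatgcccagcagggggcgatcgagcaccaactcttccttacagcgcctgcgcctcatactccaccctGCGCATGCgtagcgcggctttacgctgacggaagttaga
Ndufa11: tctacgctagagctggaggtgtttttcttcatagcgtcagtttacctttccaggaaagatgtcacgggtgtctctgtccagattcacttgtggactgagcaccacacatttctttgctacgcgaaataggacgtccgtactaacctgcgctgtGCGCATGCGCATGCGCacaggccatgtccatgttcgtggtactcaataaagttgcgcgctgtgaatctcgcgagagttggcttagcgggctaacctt
Cox6a2 holds 4 E-boxes and Cox8b 2, the last of them 14 and 56 bases before the start. The cores in Ndufa11 overlap one another. Ndufv1, which led the common subunits in the plot of intervals below, holds no such core. Ndufs7 and Ndufb7, next in size after Ndufa11 among the common subunits there, hold none either. Whether the core goes with the size of a difference was not tested.

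After 4 weeks at 0.60 mg/m3 the subunit genes were a little lower than in the controls, and few passed the test. Of the 87 genes, 7 fell and none rose (limma, Benjamini-Hochberg adjusted p under 0.05 over all genes), while 17.4% of all genes were called, 9.47% as higher and 7.9% as lower. The share of members that fell, 8.05%, is near that of all genes. At an unadjusted p under 0.05, 25 members were lower and 2 higher, as were 14.2% and 15.1% of all genes. The median change of the members was -0.11 on the log2 scale and that of all genes 0. Among the 68 common subunits 62 lay below 0 and 6 above, and the changes ran from -0.25 to 0.11. All 5 exposed arrays lay below all 5 controls in 25 members, as they did in 9.03% of all genes.

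**Figure D1:**
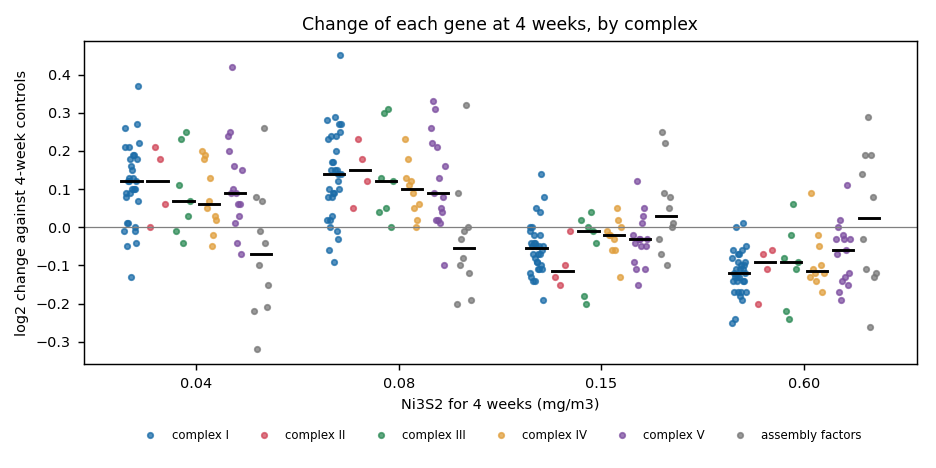
Log2 change of each gene at 4 weeks against the 4-week controls, at 4 concentrations, with 1 point per gene, colours for complexes I to V and the assembly factors, and a black bar at the median. The tissue forms of complex IV, Atp5if1 and the pseudogene are not drawn. Medians of the 5 complexes lie above 0 at 0.04 and 0.08 mg/m3 and below 0 at 0.15 and 0.60 mg/m3.

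The fall at 0.60 mg/m3 reached significance in 4 common subunits, and only in Atp5mc3 did this hold whichever array was left out. Atp5mc3, which encodes the c subunit of the rotating ring of ATP synthase, had values of 11.91, 12.01, 11.88, 11.84 and 11.95 at 0.60 mg/m3, against 12.16, 12.09, 12.12, 12.09 and 12.07 in the controls. All exposed arrays were below all controls, and the change was -0.19 ± 0.04 (SE; 1.14-fold lower, limma adjusted p = 0.00162). Atp5mc3 was also the single member called at 0.15 mg/m3, at -0.15 ± 0.04 (adjusted p = 0.047), where 3.5% of all genes were called, 1.58% as lower. That call ended when any 1 of the 10 arrays was left out, with changes between -0.16 and -0.13.

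Uqcr11, a small subunit of complex III, had 10.63, 10.71, 10.71, 10.86 and 10.72 at 0.60 mg/m3, against 10.9, 10.9, 11.04, 10.95 and 10.95 in the controls. The groups did not overlap, and the change was -0.22 ± 0.08 (adjusted p = 0.0436). Ndufc2, an accessory subunit in the membrane arm of complex I, had 11.07, 11.19, 11.15, 11.12 and 11.16 at 0.60 mg/m3, against 11.24, 11.27, 11.39, 11.39 and 11.38 in the controls, again without overlap (-0.19 ± 0.07, adjusted p = 0.0355). Cox8a, the widely expressed form of a small complex IV subunit, changed by -0.17 ± 0.06 (adjusted p = 0.0355), also without overlap. These 3 calls were near the threshold. With 1 array left out, the call ended in 9 of 10 fits for Uqcr11 and in 7 of 10 each for Ndufc2 and Cox8a.

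The other 3 genes that fell were no common subunits. Cox7a1, a muscle-type subunit of complex IV, had 7.62, 7.72, 8.03, 7.64 and 7.55 at 0.60 mg/m3, against 8.06, 7.85, 8.13, 8.29 and 8.22 in the controls. One exposed array (replicate 3, 8.03) lay within the control range, and the change was -0.40 ± 0.11 (1.32-fold lower, adjusted p = 0.0101). Ndufaf8, a complex I assembly factor, fell by 0.26 on the log2 scale (SE 0.09, adjusted p = 0.0344). The pseudogene Cox6c-ps1 fell by 0.33 (SE 0.11, adjusted p = 0.0299) on a dim probe set, with means of 3.86 at 0.60 mg/m3 and 4.19 in controls. The count of 7 ranged from 2 to 6 when single arrays were left out. It was 2 without replicate 1 of 0.60 mg/m3, and 3 or 4 without replicate 2, 3 or 5 of that group or control replicate 3, 4 or 5. Over these 7 fits 14.1% to 15.3% of all genes were called.

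The gene with the largest change in each complex passed the test at 0.60 mg/m3 only in complex V, where it was Atp5mc3. Uqcrc1, a core protein of complex III, had 9.81, 9.81, 9.86, 9.74 and 9.8 at 0.60 mg/m3, against 10.02, 9.98, 10.06, 10.06 and 10.1 in the controls. The 5 exposed arrays were all lower and close together, yet the change of -0.24 ± 0.11 did not pass (adjusted p = 0.111). Sdha, the flavoprotein of complex II that oxidises succinate, had 10.55, 10.59, 10.55, 10.54 and 10.45 at 0.60 mg/m3, against 10.71, 10.76, 10.71, 10.73 and 10.75 in the controls, also without overlap (-0.20 ± 0.10, adjusted p = 0.187). For complex I it was the assembly factor Ndufaf7, which methylates a complex I subunit, at 0.29 ± 0.15 (adjusted p = 0.19), and among its subunits Ndufa11 at -0.25 ± 0.11 (adjusted p = 0.124). For complex IV it was Cox8b, described below with the muscle forms. When the spread was taken from the 4-week arrays alone, an alternative added after the data had been seen, 17 members fell and 2 rose at 0.60 mg/m3, with 26.6% of all genes called.

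At the lower concentrations most subunit genes lay above the controls after 4 weeks. At 0.04 mg/m3, 8 members (9.2%) rose and none fell, with 12.9% of all genes called (8.29% higher, 4.61% lower). The share of members that rose is near that of all genes. The count of 8 depended on the processing. It was 30 when only the arrays compared were fitted (29.0% of all genes) and 4 when arrays were centred on their medians (14.0% of all genes). At 0.08 mg/m3, 13 (14.9%) rose and none fell, with 8.54% of all genes called (5.67% higher, 2.87% lower). The members above 0 numbered 66 and 67 of 87, and the median change was 0.09 at both concentrations, against 0.02 and 0 for all genes. All 8 genes called at 0.04 mg/m3 were among the 13 called at 0.08 mg/m3. Both comparisons used the same 5 controls, so this overlap is partly fixed by design. At 0.04 mg/m3 the 5 exposed arrays lay above all controls in 29 members (12.3% of all genes), and at 0.08 mg/m3, where the arrays were more spread, in 8 (3.99% of all genes).

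**Figure D2:**
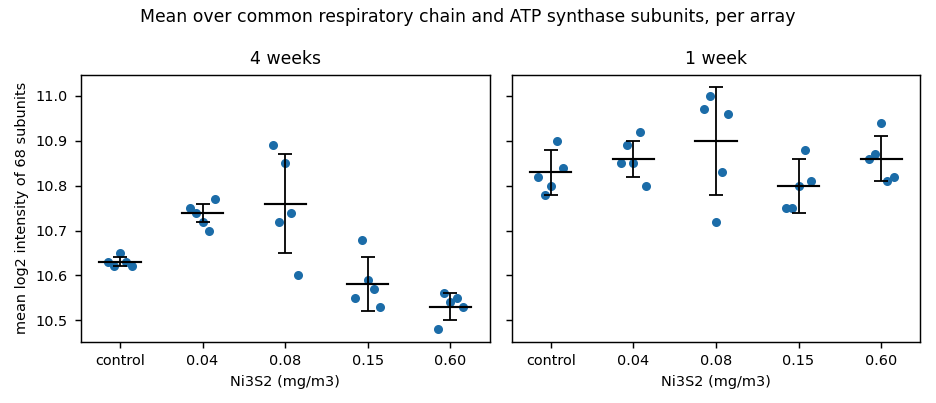
Mean log2 intensity over the 68 common subunits on each array (points) at 4 weeks (left) and 1 week (right), by concentration, with the group mean and SD (bars, n = 5). At 4 weeks the means run from 10.63 in controls through 10.74 at 0.04 mg/m3 and 10.76 at 0.08 mg/m3 to 10.58 at 0.15 mg/m3 and 10.53 at 0.60 mg/m3. At 1 week they lie between 10.80 and 10.90.

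The plot of subunit means shows that the 4-week groups differed in spread as well as in level. The mean over the 68 subunits was 10.63 ± 0.01 in controls, 10.74 ± 0.02 at 0.04 mg/m3, 10.76 ± 0.11 at 0.08 mg/m3, 10.58 ± 0.06 at 0.15 mg/m3 and 10.53 ± 0.03 at 0.60 mg/m3 (SD, n = 5 each). All 5 arrays at 0.04 mg/m3 (10.70 to 10.77) lay above all controls (10.62 to 10.65), and all 5 at 0.60 mg/m3 (10.48 to 10.56) lay below them. The arrays at 0.08 mg/m3 ran from 10.60 to 10.89, with replicate 5 below the lowest control. This average mixes probe sets of different brightness and is given as a description without a test.

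In complex I, Ndufv1 led the rises at both low concentrations. Its product binds FMN and takes the electrons from NADH. Ndufv1 had 9.57, 9.52, 9.6, 9.69 and 9.63 at 0.04 mg/m3, against 9.26, 9.21, 9.27, 9.22 and 9.21 in the controls, a change of 0.37 ± 0.11 (SE; adjusted p = 0.0226). Its values at 0.08 mg/m3 were 10, 9.61, 9.8, 9.66 and 9.35, also all above the controls, with a change of 0.45 ± 0.11 (adjusted p = 0.00703). The accessory subunits Ndufb7 (0.29), Ndufa9 (0.24) and Ndufa12 (0.23) rose too at 0.08 mg/m3. The median change of the 32 complex I subunits was 0.12 at 0.04 mg/m3 and 0.14 at 0.08 mg/m3, with 27 of 32 above 0 at each.

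In complex III the Rieske iron-sulfur protein Uqcrfs1 rose by 0.25 ± 0.07 at 0.04 mg/m3 (adjusted p = 0.0164) and 0.31 ± 0.07 at 0.08 mg/m3 (adjusted p = 0.00375). In complex IV, Cox5b rose at both concentrations, by 0.19 and 0.18 (SE 0.06 each, limma adjusted p = 0.0237 and 0.0407). With 1 array left out, the call ended in 2 of 10 fits at 0.04 mg/m3 and in 9 of 10 at 0.08 mg/m3. Replicate 5 at 0.08 mg/m3 (10.51) was below the Cox5b controls (10.58 to 10.6). None of the 4 complex II subunits was called at either concentration, with changes between 0.00 and 0.23.

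ATP synthase held 3 of the 6 common subunits called at 0.04 mg/m3 and 4 of the 10 called at 0.08 mg/m3. Atp5mc1, which encodes the same mature c subunit as Atp5mc3, had 11.27, 11.19, 11.24, 11.21 and 11.37 at 0.04 mg/m3, against 10.91, 10.75, 10.86, 10.85 and 10.82 in the controls. The groups lay far apart relative to their spread, with a change of 0.42 ± 0.07 (1.34-fold, adjusted p = 3.02e-05). The change was 0.31 ± 0.07 at 0.08 mg/m3 (adjusted p = 0.00179). The catalytic core subunits Atp5f1a and Atp5f1b rose by 0.24 and 0.20 at 0.04 mg/m3 and by 0.26 and 0.22 at 0.08 mg/m3. Atp5f1d, the delta subunit of the central stalk, rose by 0.33 ± 0.09 at 0.08 mg/m3 (adjusted p = 0.0143). Atp5mc1 at 0.60 mg/m3 had 10.74, 10.94, 10.83, 10.85 and 10.91, which overlapped the controls.

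The largest changes of any member at 4 weeks were in muscle forms of complex IV. Cox6a2, the heart and skeletal muscle form of subunit VIa, had 10.25, 10.02, 10.15, 9.99 and 10.48 at 0.04 mg/m3, against 8.63, 8.17, 7.13, 7.73 and 8.88 in the controls. All exposed arrays were higher, and the change was 2.06 ± 0.37 (4.18-fold, adjusted p = 0.000206). Its values at 0.08 mg/m3 were 10.45, 10.32, 10.13, 9.92 and 8.92, of which replicate 5 was just above the highest control (1.84 ± 0.37, 3.57-fold, adjusted p = 0.00125).

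Cox8b, the muscle form of subunit VIII, was also higher at both low concentrations. Its values were 10.12, 9.95, 10.01, 9.84 and 10.25 at 0.04 mg/m3, against 9.01, 8.81, 8.18, 8.43 and 9.04 in the controls (1.34 ± 0.34, adjusted p = 0.00679). They were, at 0.08 mg/m3, 11.12, 10.13, 10.8, 9.7 and 9.06, with replicate 5 close above the highest control (1.47 ± 0.34, adjusted p = 0.00433). Neither gene was called at 0.60 mg/m3. Cox6a2 averaged 8.10 ± 0.67 at 0.60 mg/m3 and 8.11 ± 0.70 in controls, and Cox8b averaged 8.24 ± 0.57 at 0.60 mg/m3 and 8.69 ± 0.38 in controls (SD, n = 5 each; change -0.46, adjusted p = 0.406).

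**Figure D3:**
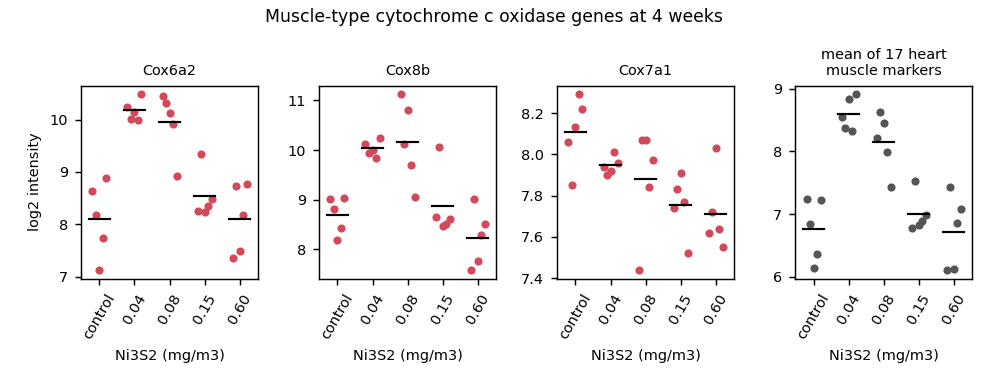
Log2 intensity of Cox6a2, Cox8b and Cox7a1 on each 4-week array, and the mean of 17 heart muscle markers on the same arrays, by concentration (points, arrays; bars, group means). Each panel has its own vertical scale. Cox6a2, Cox8b and the heart muscle markers are highest at 0.04 and 0.08 mg/m3, while Cox7a1 is highest in controls.

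Markers of heart muscle, which in rodents also lines the large pulmonary veins, moved with these genes. Of 18 listed heart markers 17 were measured, and 15 rose at 0.04 mg/m3 (median 1.91) and 10 at 0.08 mg/m3 (median 1.33), while none was called at 0.15 mg/m3 (median 0.26) or 0.60 mg/m3 (median -0.06). Their mean per array was 8.32 to 8.91 at 0.04 mg/m3 and 7.43 to 8.63 at 0.08 mg/m3, against 6.14 to 7.24 in controls. Smooth muscle markers were also higher, 9 of 9 at each of the 2 low concentrations (medians 1.04 and 0.87) and none at 0.15 or 0.60 mg/m3. In whole tissue, more cells of a type and more RNA per cell cannot be told apart.

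With the mean of the heart markers as a covariate, added after the data had been seen, Cox6a2 changed by 0.04 at 0.04 mg/m3 (adjusted p = 0.924) and by 0.31 at 0.08 mg/m3 (adjusted p = 0.235), and Cox8b by -0.16 (adjusted p = 0.79) and 0.34 (adjusted p = 0.48). The members called then numbered 2 at 0.04 mg/m3 and 0 at 0.08 mg/m3, with 5.1% and 3.55% of all genes called. With the smooth muscle score instead, no member was called at either concentration, and 0% and 0.0446% of all genes were. The part of muscle tissue in the rise of the common subunits was not tested beyond these fits, which also take out what the score shares with concentration. Without the array highest in skeletal muscle markers (0.08 mg/m3, replicate 1), 9 members rose at 0.08 mg/m3, with 9.76% of all genes called. Without replicate 5 of that group, 25 rose and 1 fell (11.0% of all genes called). Without control replicate 2 or 0.08 mg/m3 replicate 4, 8 rose, with 5.08% and 4.51% of all genes called.

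Over all 50 arrays the genes outside the members whose levels were most like those of Cox6a2 were Pgam2 (Pearson r = 0.931), Myl4 (0.917), Ckmt2 (0.915), Tnni3 (0.913) and Sln (0.913). For Cox8b they were Cav3 (0.838), Cpt1b (0.802), Pgam2 (0.801), Ckm (0.797) and Hhatl (0.789). These correlations describe arrays that share groups and tissue makeup. Cox7a1 was unlike the other muscle forms. It was not called at 0.04 mg/m3 (-0.16, 95% interval -0.40 to 0.07) or 0.08 mg/m3 (-0.23, -0.46 to 0.00), and the genes most like it were Pgap2 (0.928) and Ccndbp1 (0.905).

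The opposite positions of the high and the low concentrations were compared directly, in contrasts added after the data had been seen. Of the members, 48 were lower at 0.60 mg/m3 than at 0.08 mg/m3 and 1 was higher, with 25.7% of all genes called (12.9% higher, 12.8% lower). Against 0.04 mg/m3, 47 were lower and 2 higher, with 31.1% of all genes called (14.5% higher, 16.6% lower). The comparisons share the 0.60 mg/m3 arrays. Without the array high in skeletal muscle markers, 40 were lower and 2 higher than at 0.08 mg/m3 (25.9% of all genes called), and 44 lower and 2 higher than at 0.04 mg/m3 (26.3% of all genes called). All 5 arrays at 0.60 mg/m3 lay below all 5 at 0.08 mg/m3 in 32 members (8.18% of all genes), and below all 5 at 0.04 mg/m3 in 54 members (18.3% of all genes). The median difference of the members from 0.08 mg/m3 was -0.21, and that of all genes -0.01.

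**Figure D4:**
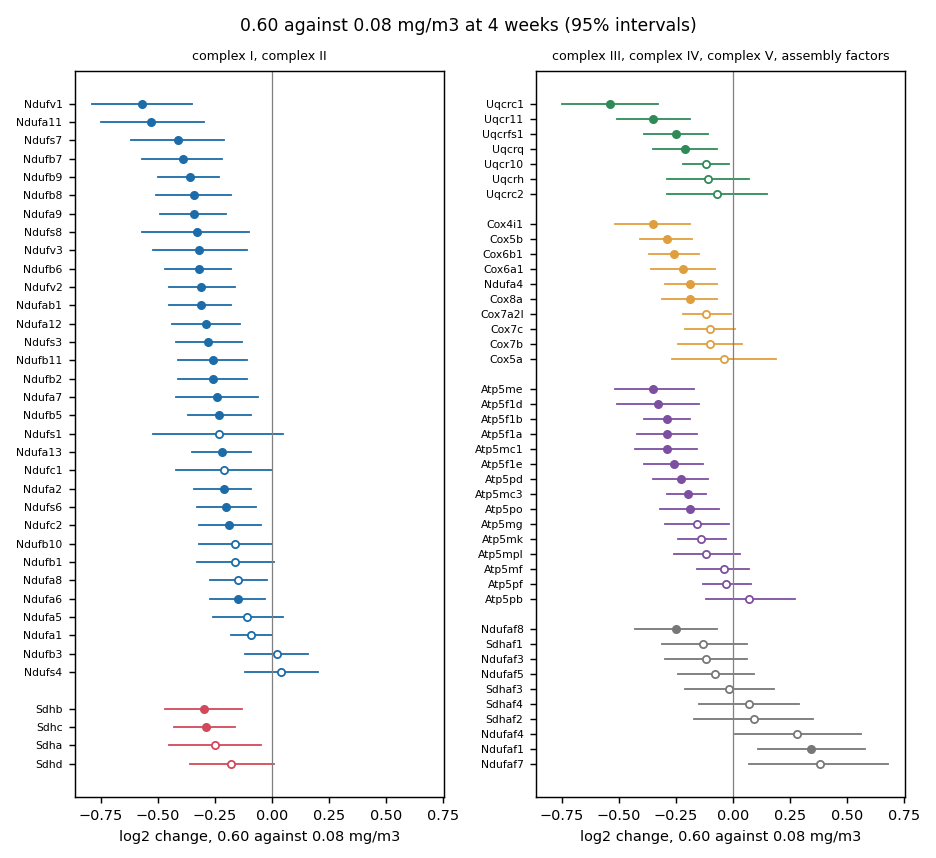
Log2 difference at 4 weeks, 0.60 mg/m3 against 0.08 mg/m3, of each common subunit and assembly factor with its 95% interval, grouped by complex. Filled points passed limma's test at an adjusted p under 0.05. Most points lie left of 0, led by Ndufv1 at -0.57 and Uqcrc1 at -0.54, while Ndufaf1 is the filled point to the right, at 0.34.

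The difference between 0.60 and 0.08 mg/m3 ran through all 5 complexes, as the plot of intervals shows. Lower at 0.60 mg/m3 were 23 of 32 complex I subunits, 2 of 4 in complex II, 4 of 7 in complex III, 6 of 10 in complex IV and 9 of 15 in complex V. Uqcrc1 had 9.81, 9.81, 9.86, 9.74 and 9.8 at 0.60 mg/m3, against 10.67, 10.26, 10.48, 10.32 and 10.01 at 0.08 mg/m3. The groups did not overlap, and the difference was -0.54 ± 0.11 (1.46-fold lower, adjusted p = 0.000124). Ndufa11, in the membrane arm of complex I, had 9.73, 9.92, 9.87, 9.83 and 9.82 at 0.60 mg/m3, against 10.42, 10.24, 10.6, 10.41 and 10.14 at 0.08 mg/m3 (-0.53 ± 0.11, adjusted p = 0.000448).

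Electron entry, transfer and ATP synthesis were all represented. Ndufv1 was lower by -0.57 ± 0.11 on the log2 scale (adjusted p = 0.000121). In complex II the iron-sulfur protein Sdhb and the membrane anchor Sdhc differed by -0.30 ± 0.08 and -0.29 ± 0.07 (adjusted p = 0.00726 and 0.000818). In complex IV, Cox4i1, which carries the regulatory site for adenine nucleotides, had 10.45, 10.53, 10.67, 10.53 and 10.58 at 0.60 mg/m3, against 10.97, 10.77, 11.06, 10.96 and 10.79 at 0.08 mg/m3. The groups did not overlap (-0.35 ± 0.08, adjusted p = 0.0014). Atp5f1b, the catalytic beta subunit, differed by -0.29 ± 0.05 (adjusted p = 1.38e-05) and Atp5me, a membrane subunit, by -0.35 ± 0.09 (adjusted p = 0.00209).

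Heart and smooth muscle markers differed between the same groups. In all, 12 of 17 heart markers (median -1.39) and 9 of 9 smooth muscle markers (median -1) were lower at 0.60 mg/m3 than at 0.08 mg/m3. With the heart score as a covariate, 27 members were still lower at 0.60 mg/m3 than at 0.08 mg/m3 and none was higher, with 18.4% of all genes called, and 16 were lower and 1 higher than at 0.04 mg/m3 (21.3%). With the smooth muscle score, 8 and 3 members were lower (3.99% and 2.31% of all genes called). Cox8b, at -1.93 ± 0.34 against 0.08 mg/m3 (adjusted p = 3.54e-05), was at -0.76 with the heart score (adjusted p = 0.0415), and Cox6a2, at -1.85 ± 0.37 (adjusted p = 0.000219), was at -0.27 (adjusted p = 0.211). Against 0.15 mg/m3, no member was called at 0.60 mg/m3 by limma at 4 weeks, where 2.87% of all genes were called and 5 members had an unadjusted p under 0.05, as did 13% of all genes. The fit of 4-week arrays alone called 1, with 5.84% of all genes.

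None of the 4 tissue forms of complex IV subunits outside muscle was called against controls at 4 weeks. Cox4i2, a form known from lung that responds to oxygen, had a dim probe set, with values between 3.34 and 4.16 on the 4-week arrays. Its change at 0.60 mg/m3 was -0.08 (95% interval -0.39 to 0.23, adjusted p = 0.792). Ndufa4l2, a paralogue of the complex IV subunit Ndufa4 that hypoxia-inducible factor induces in many cells, changed by -0.18 (-0.49 to 0.13, adjusted p = 0.486), with values of 4.63, 4.63, 4.94, 4.93 and 5.02 at 0.60 mg/m3 and 5.16, 4.74, 5.05, 5.18 and 4.91 in the controls. In the same comparison 8 of 16 measured targets of hypoxia-inducible factor rose, among them Egln3 by 2.15 and Ldha by 0.60, where 9.47% of all genes were called higher. None of the 16 fell, the other 8 were not called, and the changes ran from -0.19 to 2.15 with a median of 0.29.

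Of the common complex IV subunits, Cox8a was the one called lower at 0.60 mg/m3 (-0.17, as above). Cox4i1 at 0.60 mg/m3 changed by -0.13, Cox5a by 0.09, Cox5b by -0.11, Cox6a1 by -0.12, Cox6b1 by -0.14, Cox7a2l by -0.02, Cox7b by -0.05 and Ndufa4 by -0.12, none of them called. The probe set of Cox5a was dim, with means of 5.73 at 0.60 mg/m3 and 5.64 in controls. Cox6b2 and Cox7b2, known as testis forms, gave -0.29 and 0.14, also not called, on dim probe sets. Atp5if1, which blocks ATP synthase when the gradient fails, was not called at 4 weeks (0.00 at 0.60 mg/m3, 95% interval -0.13 to 0.13).

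After 1 week the picture was of another kind, because members moved both ways within the same complex. The genes of the whole array also moved both ways, with near equal shares higher and lower at 0.15 and 0.60 mg/m3. The split is therefore not particular to the members. The first principal component of all genes averaged -58 in the 1-week controls and 31.3 in the 4-week controls. It averaged 8.56 at 0.15 mg/m3 and 2.52 at 0.60 mg/m3 for 1 week. The rises and falls at 1 week are differences from the 1-week controls, and how much of them is due to exposure was not tested. At 0.04 mg/m3, 7 rose and 3 fell, 11.5% of members, with 26.9% of all genes called (15.1% higher, 11.8% lower). At 0.08 mg/m3, 35 rose and 23 fell, 66.7% of members, with 48.6% of all genes called (25.1% higher, 23.5% lower). Counts at 0.15 mg/m3 were 32 and 34, 75.9% of members, with 67.4% of all genes called (33.8% higher, 33.7% lower). Counts at 0.60 mg/m3 were 36 and 32, 78.2% of members, with 65.1% of all genes called (32.8% higher, 32.3% lower). The mean over the 68 subunits lay between 10.80 and 10.90 in the 5 groups. Muscle markers differed as well at 0.60 mg/m3 for 1 week, with 11 of 17 heart markers higher and 8 of 9 smooth muscle markers lower than in controls, and their part in the members' changes was not tested.

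**Figure D5:**
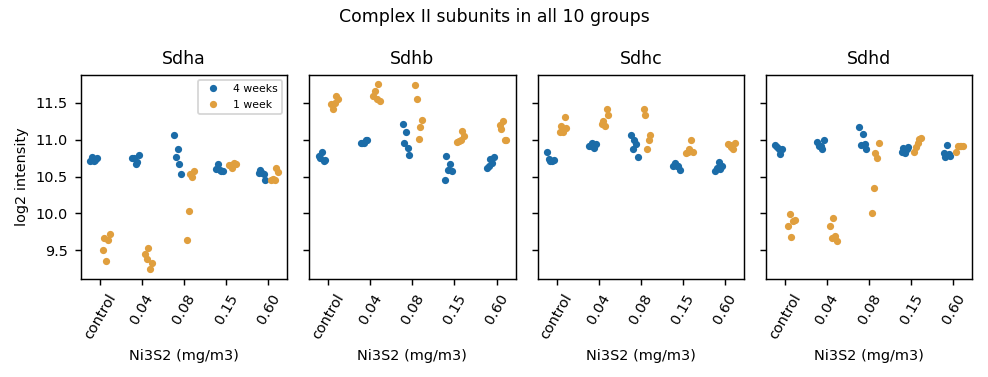
Log2 intensity of the 4 complex II subunits on all 50 arrays, by concentration, at 4 weeks (blue, left of each pair) and 1 week (orange, right). At 1 week Sdha and Sdhd are low in the controls and at 0.04 mg/m3, where Sdhb and Sdhc are high, and the 0.08 mg/m3 arrays are widely spread.

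Complex II shows the split, which the whole array shared, in a single enzyme of 4 subunits. Sdha had 10.45, 10.47, 10.45, 10.62 and 10.56 at 0.60 mg/m3 for 1 week, against 9.5, 9.67, 9.35, 9.64 and 9.72 in the 1-week controls, and rose by 0.94 ± 0.10 (1.91-fold, adjusted p = 5.23e-11). Sdhd, a membrane anchor, rose by 1.04 ± 0.09 (adjusted p = 3.67e-13). Sdhb had 11.2, 11.15, 11.25, 11 and 10.99 at 0.60 mg/m3, against 11.49, 11.42, 11.5, 11.6 and 11.56 in the controls, and fell by 0.40 on the log2 scale (SE 0.08, adjusted p = 6.5e-05). Sdhc changed by -0.25 ± 0.07 (adjusted p = 0.000911). None of these groups overlapped, so the 2 pairs of partners lay on opposite sides of the controls.

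Complex I was divided in the same way. Ndufs1, the largest iron-sulfur subunit, had 9.4, 9.4, 9.38, 9.33 and 9.24 at 0.60 mg/m3 for 1 week, against 7.62, 7.54, 7.33, 7.79 and 8.01 in the 1-week controls (1.69 ± 0.14, 3.23-fold, adjusted p = 5.77e-14). Ndufv1 had 9.88, 9.85, 9.88, 9.55 and 9.5 at 0.60 mg/m3, against 10.72, 10.51, 10.73, 10.76 and 10.51 in the controls (-0.91, adjusted p = 9.48e-10). The iron-sulfur subunit Ndufs8 had 9.28, 9.38, 9.39, 9.03 and 9.03 at 0.60 mg/m3, against 10.08, 9.91, 10.3, 10.37 and 9.92 in the controls (-0.89 ± 0.12, adjusted p = 5.22e-09). Exposed arrays lay on one side of the controls in all 3 genes, and Ndufs7, another iron-sulfur subunit, changed by -0.85 ± 0.10. Of the 32 complex I subunits 13 rose and 16 fell. In complex III, Uqcrc2 rose by 0.95 while its partner Uqcrc1 changed by -0.83 ± 0.11 (adjusted p = 2.92e-09).

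The largest rise at 0.60 mg/m3 for 1 week was in an assembly factor. Ndufaf7 had 7.58, 7.41, 7.37, 7.34 and 7.35 at 0.60 mg/m3, against 5.37, 5.59, 4.95, 5.48 and 5.44 in the 1-week controls, and rose by 2.04 ± 0.15 (4.13-fold, adjusted p = 2.42e-15). Sdhaf2, which helps attach flavin to Sdha, rose by 1.38, and Sdhaf4, which helps join Sdha to Sdhb, by 1.16. Ndufaf1 rose by 1.19, Ndufaf5 by 0.83 and Sdhaf3 by 0.58. Sdhaf1, which serves the iron-sulfur clusters of Sdhb, changed by -0.75 and Ndufaf8 by -0.29, so that 6 of the 10 rose and 2 fell. The inhibitor Atp5if1 rose too, by 0.17 ± 0.06 (adjusted p = 0.0229), with all 5 exposed arrays (10.42 to 10.55) above the controls (10.26 to 10.39). At 4 weeks the only assembly factors called against controls were Ndufaf8 at 0.60 mg/m3 and Sdhaf1 at 0.08 mg/m3 (0.32 ± 0.09, adjusted p = 0.0235).

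The comparison of unexposed animals bears on these changes. Between 4-week and 1-week controls 27 members were higher and 40 lower (77% of members), with 73.5% of all genes called (35.2% higher, 38.2% lower). Ndufs1 differed by 1.92 ± 0.14, Sdha by 1.16 ± 0.10, Sdhd by 1.02 ± 0.09 and Ndufaf7 by 1.25 ± 0.15. Sdhb differed by -0.75 ± 0.08, Sdhc by -0.43 ± 0.07, Uqcrc1 by -1.31 ± 0.11 and Ndufv1 by -1.41 ± 0.11. The groups of each of these 8 genes did not overlap. These differences and the 1-week changes above share the 1-week controls, and a difference between the 2 sets of controls cannot be told apart from one of age, day or handling. The sources used here do not give whether the arrays of both times were normalized together, and an effect of normalizing them separately cannot be told apart from these differences either.

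Within the 1-week groups, those at 0.15 and 0.60 mg/m3 lay close together. No member was called between them, and limma called 2 of all genes (0.0149%; 0.00744% higher and 0.00744% lower), and 3 members had an unadjusted p under 0.05, as did 6.45% of all genes. With array quality weights 3 members were higher at 0.60 mg/m3, with 1.56% of all genes called. The 5 arrays at 0.08 mg/m3 were spread out. Sdha there had 9.64, 10.03, 10.53, 10.49 and 10.58, of which replicate 1 lay among the controls and the last 3 among those at 0.60 mg/m3 (10.45 to 10.62). The median SD of the members was 0.228 in that group and 0.055 to 0.124 in the 9 others.

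At 0.04 mg/m3 for 1 week the members that rose included tissue forms. Cox7a1 had 8.43, 8.59, 8.6, 8.97 and 8.86, against 7.99, 8.41, 8.22, 8.28 and 8.37 in the 1-week controls, with no overlap (0.43 ± 0.11, adjusted p = 0.00596). Cox4i2 rose by 0.66 ± 0.16 (adjusted p = 0.00265) and Ndufa4l2 by 0.54 ± 0.15 (adjusted p = 0.00974). Both fell at 0.15 and at 0.60 mg/m3, with changes of -0.47 and -0.49 for Cox4i2 and -0.59 and -0.62 for Ndufa4l2. The arrays of both genes overlapped the controls at 0.04 and 0.15 mg/m3. The probe set of Cox4i2 was dim, with means of 5.14 at 0.04 mg/m3 and 4.48 in controls. With 1 array left out, the Ndufa4l2 call at 0.04 mg/m3 and the Cox4i2 call at 0.15 mg/m3 each ended in 1 of 10 fits. Among common subunits Ndufb8 rose by 0.25 at 0.04 mg/m3, while Uqcrc2 and Atp5pb changed by -0.36 each. Cox6a2 was not called at any concentration at 1 week, and its 1-week controls ran from 7.17 to 9.81. Cox8b was called at 0.08 mg/m3 for 1 week, with 10.67, 10.3, 9.11, 9.94 and 10.15, against 8.44, 8.96, 8.21, 10.19 and 10.21 in the 1-week controls (0.83 ± 0.34, adjusted p = 0.0402). The groups overlapped, and the call ended in 7 of the 10 fits that left out 1 array, with changes between 0.58 and 1.08, and with only the arrays compared (adjusted p = 0.147). It was not called at 0.04, 0.15 or 0.60 mg/m3 for 1 week.

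The change at 4 weeks differed from that at 1 week in many members at the higher concentrations. By the interaction term of the same fit, 2 members had a higher change at 4 weeks and 3 a lower one at 0.04 mg/m3 (12% of all genes called, 7.22% higher and 4.78% lower). The counts were 24 and 25 at 0.08 mg/m3 (44.4%; 21.4% higher, 23% lower), 26 and 30 at 0.15 mg/m3 (56.8%; 27.4% higher, 29.4% lower), and 22 and 36 at 0.60 mg/m3 (56.7%; 27.7% higher, 29% lower). At 0.60 mg/m3 the change of Sdha was lower at 4 weeks (difference -1.13 ± 0.14, adjusted p = 9.94e-09) and that of Ndufv1 differed by 0.79 ± 0.16 (adjusted p = 3.16e-05). The differences of Cox6a2 between times were not called at 0.04 mg/m3 (1.25 ± 0.53, adjusted p = 0.116) or 0.60 mg/m3.

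Other mitochondrial genes at 4 weeks were counted beside the members. Of 16 citric acid cycle genes 4 rose at 0.04 mg/m3 and 6 at 0.08 mg/m3, where 8.29% and 5.67% of all genes rose, and Ogdh, of the oxoglutarate dehydrogenase complex, fell at the 2 highest concentrations (-0.37 and -0.38). Of the 16, 9 were lower at 0.60 mg/m3 than at 0.08 mg/m3 (12.8% of all genes). Among 73 mitochondrial ribosomal proteins 2 rose and 2 fell at 0.04 mg/m3, 4 rose at 0.08 mg/m3 and none was called at 0.15 or 0.60 mg/m3. Of 34 electron carriers and assembly factors outside the symbol rule, 3 rose and 2 fell at 0.60 mg/m3, near the 9.47% and 7.9% of all genes that did, with the electron transfer flavoprotein Etfb at -0.41. Among 16 genes of mitochondrial biogenesis the coactivator Ppargc1a fell at 0.60 mg/m3 by 0.61 on the log2 scale (SE 0.20, adjusted p = 0.0266) while Pprc1 rose by 0.29. These named genes do not describe the list as a whole, which was not tested as a set.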

How the data were processed

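Total RNA of 50 lung samples, 1 rat each, was hybridised to 50 Affymetrix arrays after 3' in vitro transcription labelling. The deposited values are log2 intensities made with RMA in Partek, per the submitters' processing notes, with versions not given in the sources used here. Whether all 50 arrays were normalized together is not given in the sources used here, and the array medians run from 5.25 to 5.61. From here on the values were used as deposited. Probe sets with 1 symbol in the platform annotation (19063) were reduced to the brightest per gene (13438 genes). limma 3.58.1 in R 4.3.3 fitted 10 group means over 50 arrays (lmFit, eBayes). p-values were two-sided and adjusted by Benjamini-Hochberg over all genes per contrast, with a threshold of 0.05. Replicates are separate animals.

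The members and the gene lists were chosen with earlier results of these data known. Genes named with values per array are the 3 largest rises and falls per contrast among called members without overlap, the largest change per complex at 0.60 mg/m3 for 4 weeks, and the isoform pairs of complex IV. Ndufa11, Ndufv1 at 0.04 mg/m3, Cox5b, Uqcrfs1, Sdhb and the other genes of the added contrasts were chosen after their values were seen. Replicate numbers do not pair the animals: over 225 same-numbered pairs of groups the deviations correlated between -0.517 and 0.61 (median -0.00706). The fit was tested on simulated data with known changes at 0.60 mg/m3 for 4 weeks, 50 genes per size. It recovered 16% of log2 changes of 0.25, 72% of those of 0.5, 94% of those of 1 and 100% of those of 2. It also called 8 unchanged genes. These shares are not specific to the members, and recovery for the common subunits was not tested. At 0.60 mg/m3 for 4 weeks the median SD within the group was 0.068 for the members and 0.117 for all genes. Alternatives tried were array quality weights, median centring, quantile normalization, a filter on dim genes, the mean of all probe sets of a gene, a fit of only the arrays compared, the replicate block and leaving out each array. Muscle scores as covariates, 4-week arrays alone and 4 contrasts between concentrations were chosen with the data in view. Promoter sequences are RefSeq's on GRCr8.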

Additional observations from a re-analysis of the deposited data

Results flagged for a closer look

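Among 74 gene and group pairs, 3 held an array far from its group, where chance alone gives about 1 in 20. At 0.15 mg/m3 for 4 weeks replicate 2 was high in both muscle forms of complex IV, with Cox6a2 at 9.34 (the others 8.23 to 8.49) and Cox8b at 10.07 (8.48 to 8.66). Its heart marker mean was 7.53, against 6.77 to 6.98 on the other 4 arrays. Atp5mc3 on replicate 5 of that group was 11.91, with the others at 11.96 to 11.98.

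Of 28 named changes, 20 differed between 4 weeks and 1 week by limma's interaction term, given here as 4-week change minus 1-week change. At 0.04 mg/m3 these were Atp5mc1 (0.34) and Cox7a1 (-0.60). At 0.08 mg/m3 they were Ndufaf7 (-1.23), Ndufv1 (0.89), Sdhaf4 (-0.97) and Sdhd (-0.59). At 0.15 mg/m3 they were Atp5mc3 (-0.41), Ndufaf7 (-1.74), Ndufs1 (-1.67), Ndufs8 (0.99), Ndufv1 (0.85), Sdhaf2 (-1.25) and Uqcrc1 (0.90). At 0.60 mg/m3 they were Ndufaf7 (-1.75), Ndufs1 (-1.81), Ndufs7 (0.71), Ndufs8 (0.81), Ndufv1 (0.79), Sdhaf2 (-1.30) and Uqcr11 (0.36). The 1-week controls enter each of these values, and their part in the differences was not tested. The 28 changes had been chosen as the largest called rises and falls at either time, on the same arrays. A difference from the other time is thus partly built in by that choice, and the count of 20 is no independent result. The shares of all genes called by the same term are given above, beside the counts of members.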

How the results depend on the processing

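Counts of members called changed with the processing, as did the share of all genes called, given in brackets. At 0.60 mg/m3 for 4 weeks the count of 7 (17.4%) became 31 with array quality weights (32%), 25 with arrays centred on their median (19.1%), 12 after quantile normalization (17.7%), 18 with only the arrays compared (26.4%) and 19 with the 4-week arrays alone (26.6%). At 0.04 mg/m3 for 4 weeks the count of 8 (12.9%) became 40 with weights (39.3%), 4 with centring (14.0%), 15 with quantile normalization (12.6%), 13 without the dimmest 25% of genes (17%), 30 with only the arrays compared (29.0%) and 24 with 4-week arrays alone (22.9%). At 0.08 mg/m3 for 4 weeks the count of 13 (8.54%) became 31 with weights (25.6%), 6 with only the arrays compared (5.97%) and 27 with 4-week arrays alone (17.6%). At 0.15 mg/m3 for 4 weeks the count of 1 (3.5%) became 10 with weights (14.8%), 0 with centring (3.71%), 0 with quantile normalization (3.55%), 3 with 4-week arrays alone (8.13%) and 2 with the smooth muscle score (3.62%). The heart score gave 2 at 0.04 mg/m3 (5.1%), 0 at 0.08 mg/m3 (3.55%), 17 for 0.60 against 0.04 mg/m3 (21.3%) and 27 for 0.60 against 0.08 mg/m3 (18.4%), and the smooth muscle score gave 0 (0%), 0 (0.0446%), 3 (2.31%) and 8 (3.99%). Against 0.15 mg/m3, 0.60 mg/m3 gave 3 with weights at 1 week (1.56%) and 1 with 4-week arrays alone at 4 weeks (5.84%). At 0.08 mg/m3 for 1 week the count of 58 (48.6%) became 24 with only the arrays compared (27.7%), and the time difference at 0.04 mg/m3 was 12 with weights (22.7%), against 5 (12%). Reversed in sign, and not called, were Cox8b at 0.04 mg/m3 (-0.16) and Cox6a2 for 0.60 against 0.04 mg/m3 (0.00), both with the heart score. The cause of these shifts was not tested.

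With the replicate block, which the labels do not give as a pairing, the count at 0.15 mg/m3 for 4 weeks was 0 (3.43%). No other count moved by over 1.5 times with this block. For 0.60 mg/m3 at 4 weeks the count was 7 (17%). Leaving out single arrays gave 2 to 6 at 0.60 mg/m3 (14.1% to 16.2%), 0 to 1 at 0.15 mg/m3 (2.54% to 2.98%), 8 to 26 at 0.08 mg/m3 (4.51% to 11.0%) and 6 to 12 at 0.04 mg/m3 (7.05% to 14.5%) for 4 weeks, 6 to 12 at 0.04 mg/m3 for 1 week (16.8% to 32.1%), 49 to 61 at 0.08 mg/m3 for 1 week (42.6% to 54.6%), and 4 to 8 for the time difference at 0.04 mg/m3 (9.39% to 13.6%). Of 1022 checks of single genes 908 stayed past the threshold in the same direction, 112 kept the direction only, and 2 reversed.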
